A study of Mus musculus with 8 samples.

Results

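The efferent cholinergic synapse of the cochlea is described here through 9 genes: the acetylcholine receptor subunits Chrna9 and Chrna10, the receptor clustering gene Rapsn, the acetylcholine handling genes Ache, Chat, Slc5a7 and Slc18a3, and the peptide genes Calca and Calcb. They were chosen by gene name from the 78317 genes of the deposited expression table, and all 9 were found. The libraries were made from mouse basilar membrane, on which the hair cells of the cochlea sit, taken on postnatal day 6. There are 4 libraries titled hete, whose genotype tag reads WT, and 4 titled homo, whose tag reads Dnajc17 cKO, a conditional knockout. Whether the hete animals carry a mutant allele, what drives the deletion, and whether each library is a separate animal were not stated in the labels, so p-values measure the spread between libraries, which may be technical.

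Efferent neurons of the brainstem send axons to the cochlea and release acetylcholine onto hair cells, mainly outer hair cells in the adult and inner hair cells before the onset of hearing. Acetylcholine opens a receptor built of alpha9 and alpha10 subunits, calcium enters, and nearby calcium-activated potassium channels then inhibit the cell. The receptor genes are thus transcribed in hair cells of the dissected tissue, whereas the cell bodies of the efferent neurons, where Chat, Slc18a3 and Slc5a7 are known to be transcribed, lie outside it.

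The promoters of the receptor subunits and of the nested cholinergic gene pair are printed here, because the subunits carry the receptor result and Chat and Slc18a3 are the members listed at 0 in all libraries. Sequences are from RefSeq on build GRCm38.p6 and run from 250 bases before to 50 bases after a transcript start, 5′ to 3′ on the gene's strand. A RefSeq promoter was matched for 7 of the 9 genes by symbol. Capitals mark CANNTG, the E-box read by basic helix-loop-helix factors such as the hair cell factor ATOH1. It reads the same on both strands and 72.31% of 32851 promoters of 300 bases hold it, so its presence in all 4 is a description only. Neither TATAAA (both strands, 13.62% of promoters) nor TGACGTCA (1.79%) is in these 4 windows. The Chrna9 window is chr5:65966874-65967173 on the plus strand, that of Chrna10 is chr7:102116664-102116963 on the minus strand, that of Chat is chr14:32465860-32466159 on the minus strand, and that of Slc18a3 is chr14:32464801-32465100 on the minus strand.
Chrna9: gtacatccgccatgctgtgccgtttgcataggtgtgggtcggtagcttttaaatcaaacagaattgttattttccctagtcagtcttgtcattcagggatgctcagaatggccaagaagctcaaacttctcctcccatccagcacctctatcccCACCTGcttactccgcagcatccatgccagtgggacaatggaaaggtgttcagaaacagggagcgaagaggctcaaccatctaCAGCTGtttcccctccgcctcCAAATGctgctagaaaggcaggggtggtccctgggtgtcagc
Chrna10: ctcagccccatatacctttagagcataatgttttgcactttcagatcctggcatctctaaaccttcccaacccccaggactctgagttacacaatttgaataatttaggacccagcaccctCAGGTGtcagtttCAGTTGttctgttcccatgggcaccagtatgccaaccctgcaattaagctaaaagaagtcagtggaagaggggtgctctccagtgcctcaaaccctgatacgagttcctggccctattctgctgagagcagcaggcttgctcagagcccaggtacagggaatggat
Chat: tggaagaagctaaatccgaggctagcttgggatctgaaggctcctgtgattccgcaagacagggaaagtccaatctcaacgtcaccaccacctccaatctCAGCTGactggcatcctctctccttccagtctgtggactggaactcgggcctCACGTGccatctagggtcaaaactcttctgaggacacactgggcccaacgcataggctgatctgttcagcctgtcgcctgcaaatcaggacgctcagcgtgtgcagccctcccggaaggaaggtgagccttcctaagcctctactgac
Slc18a3: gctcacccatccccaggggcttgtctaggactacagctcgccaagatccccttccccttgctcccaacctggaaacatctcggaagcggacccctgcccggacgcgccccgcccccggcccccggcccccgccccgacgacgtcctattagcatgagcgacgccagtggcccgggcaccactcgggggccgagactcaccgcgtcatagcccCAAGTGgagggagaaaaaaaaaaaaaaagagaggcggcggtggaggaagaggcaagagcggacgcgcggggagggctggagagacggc
The Chrna10 window holds 1 CpG and 49.3% G and C, the Chrna9 window 6 and 52.0%, the Chat window 10 and 55.7%, and the Slc18a3 window 27 and 67.0%. The median over all promoters was 7 CpG and 52.7%. Slc18a3 lies within the span of Chat on chromosome 14 and shares no exonic base with it in the GENCODE M21 annotation.

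Values are TPM, a transcript abundance scaled by transcript length and by library, so levels of different genes can be compared within a library. TPM keeps no sequencing depth, so no counting interval is given. Between 28159 and 28969 genes were above 0 in a library. Dnajc17, the targeted gene, had 22.06 to 26.51 TPM in hete and 18.04 to 31.08 TPM in homo (0.07 in log2, SE 0.15; limma-trend, adjusted p = 0.969), so its level did not tell the groups apart. Which exons are deleted was not stated in the labels, so this level does not check the genotype. Homo was compared with hete by limma-trend on log2(TPM + 1), over 17811 genes whose mean reached 1 TPM, with Benjamini-Hochberg adjustment over all of them and a threshold of 0.05. In that fit 2 genes were called, 0.0112% of those tested, and 6.05% had an unadjusted p under 0.05.

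The 9 genes ranged from well expressed to listed at 0. Calca was the highest, at 30.9 ± 5.59 TPM (SD, n = 8 libraries), above 70.4% of the tested genes. Chrna10 followed at 12.7 ± 1.98 TPM and Chrna9 at 5.85 ± 1.24 TPM, above 47.7% and 32.1% of tested genes. Below them stood Ache at 3.69 ± 1.56, Rapsn at 3.12 ± 1.00, Slc5a7 at 1.39 ± 0.40 and Calcb at 0.611 ± 0.201 TPM. Chat and Slc18a3 were listed at 0 in all 8 libraries. Neighbours in this order were compared within libraries by a two-sided exact sign-flip permutation test, adjusted over the 6 neighbouring pairs. The order was taken from the means of the same 8 libraries, hete and homo together, so the direction of each pair was set before the test. The p-values therefore describe only how steady a difference was from library to library. With 8 libraries the smallest p this test can give is 0.00781. Calca over Chrna10, Chrna10 over Chrna9, Rapsn over Slc5a7 and Slc5a7 over Calcb each held in 8 of 8 libraries (adjusted p = 0.0117 for each in the exact permutation test, log2 differences of 1.21, 1.01, 0.77 and 0.56). Chrna9 over Ache held in 7 of 8 (log2 difference 0.60 ± 0.52 SD, adjusted p = 0.0281 in the exact permutation test). That call ended at an adjusted p of 0.0563 without any 1 of hete replicates 1, 3 or 4 or homo replicates 1, 2 or 3. Ache and Rapsn did not differ beyond their spread (log2 difference 0.15 ± 0.53 SD, adjusted p = 0.406 in the exact permutation test). Of the 9 genes, 6 passed the filter on low values, and Calcb, Chat and Slc18a3 did not. None of the 6 was called between homo and hete. At an unadjusted p under 0.05 there was 1, Chrna9, on the lower side, where 2.49% of tested genes were lower and 3.56% higher at that p. That number was 2 in the fit with no filter and when homo replicate 2 or homo replicate 4 was left out. The groups overlapped for all 9 genes, and for 3.99% of tested genes they did not.

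**Figure D1:**
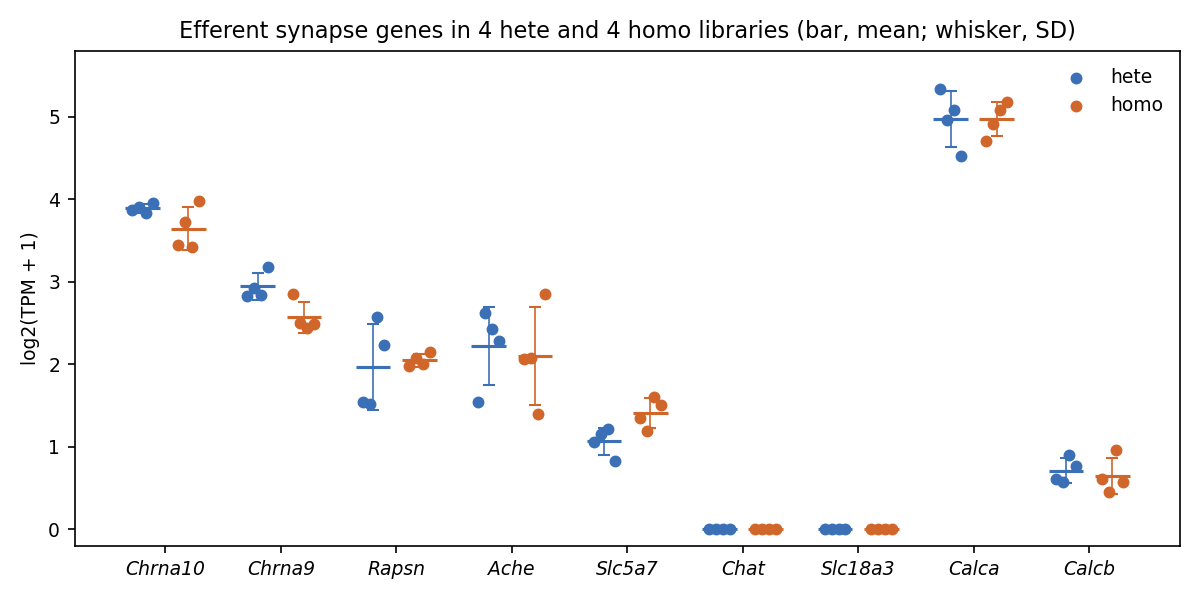
Level of each of the 9 genes as log2(TPM + 1) on the y axis, with 1 point per library for hete and homo, a bar at the mean and a whisker of 1 SD. Chat and Slc18a3 are at 0 in all 8 libraries, and the hete and homo points of the other 7 genes overlap.

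Chrna9 encodes the alpha9 subunit, which can form a receptor alone and is the subunit the efferent response requires. The hete libraries, replicates 1 to 4 in order, held 6.08, 6.57, 6.18 and 8.08 TPM, against 6.19, 4.65, 4.44 and 4.62 TPM in the homo libraries 1 to 4. Of the homo libraries 3 lay below all hete libraries, and homo replicate 1 lay within the hete range. Its change, homo over hete, came to -0.37 in log2 (SE 0.13, with a 95% interval from -0.66 to -0.08; limma-trend, unadjusted p = 0.0165, adjusted p = 0.727). It ranged from -0.47 without homo replicate 1 to -0.29 without hete replicate 4, and did not pass the adjusted threshold in any alternative. In a whole-tissue sample, fewer hair cells and less transcript per hair cell cannot be told apart.

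Chrna10 encodes the alpha10 subunit, which joins alpha9 to give the full-sized current of the native receptor. It had 13.59, 13.98, 13.22 and 14.54 TPM in hete and 9.89, 12.17, 9.75 and 14.79 TPM in homo. The hete libraries were close together, 3 homo libraries lay below all of them, and homo replicate 4 was the highest of all 8. Its change, homo over hete, came to -0.25 in log2 (SE 0.12, with a 95% interval from -0.52 to 0.03; limma-trend, adjusted p = 0.870). It ranged from -0.36 without homo replicate 4 to -0.17 without homo replicate 3. Chrna10 overlaps Art1, an ADP-ribosyltransferase gene on the opposite strand, over 1025 of its 2628 exonic bases in GENCODE M21. The library kit keeps strand, but whether counting used it was not stated in the labels. Art1 averaged 1.21 TPM in hete and 1.67 TPM in homo, well below Chrna10.

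The alpha10 transcript exceeded the alpha9 transcript in each library, by 1.80 to 2.24 times in hete and by 1.60 to 3.20 times in homo. The log2 ratio of Chrna10 to Chrna9 was 1.05 ± 0.14 for hete against 1.22 ± 0.43 for homo (SD, 4 libraries each; two-sided exact permutation test, p = 0.457, adjusted over 2 ratios p = 0.629). The smallest p that 4 against 4 can give is 0.0286. The homo libraries held both extremes, as homo replicate 1 kept the hete level of Chrna9 with a low Chrna10 and homo replicate 4 had a low Chrna9 with the highest Chrna10. The ratio difference of 0.17 fell to 0.02 without homo replicate 4 and rose to 0.35 without homo replicate 1. The transcripts of both genes align over 923 bases at 67.8% identity, with an identical run of at most 16 bases, so few reads can fit both.

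General hair cell markers gave a rough measure of how much hair cell transcript each library held. Pvalb among them was lowest in hete replicate 1 (48.13 TPM) and highest in homo replicate 4 (100.06 TPM), as was the mean of the spiral ganglion neuron markers. How far neurons entered the measure was not tested. The mean log2(TPM + 1) of the 15 hair cell markers, none of them a member, was 3.68 ± 0.05 for hete against 3.60 ± 0.10 for homo (SD, 4 libraries each, two-sided exact permutation test, p = 0.2). Relative to this mean Chrna9 stood at -0.79, -0.76, -0.87 and -0.54 in hete and at -0.72, -1.17, -1.02 and -1.19 in homo on the log2 scale. The same 3 homo libraries lay below all hete libraries, and homo replicate 1 lay among them. The difference was -0.29 (exact permutation test, p = 0.114, adjusted over 4 genes p = 0.343). Chrna10 stood at 0.21 ± 0.06 in hete and 0.05 ± 0.18 in homo (difference -0.16; exact permutation test, p = 0.171, adjusted p = 0.343). Neither difference exceeded the spread between libraries by this test. Against outer hair cell markers in place of general ones the differences were -0.20 and -0.08. That list holds Ocm, which had the largest fall of its tested genes (-0.92 in log2, SE 0.34) and 277.77 TPM in hete replicate 4. The part of Ocm in these differences was not tested.

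**Figure D2:**
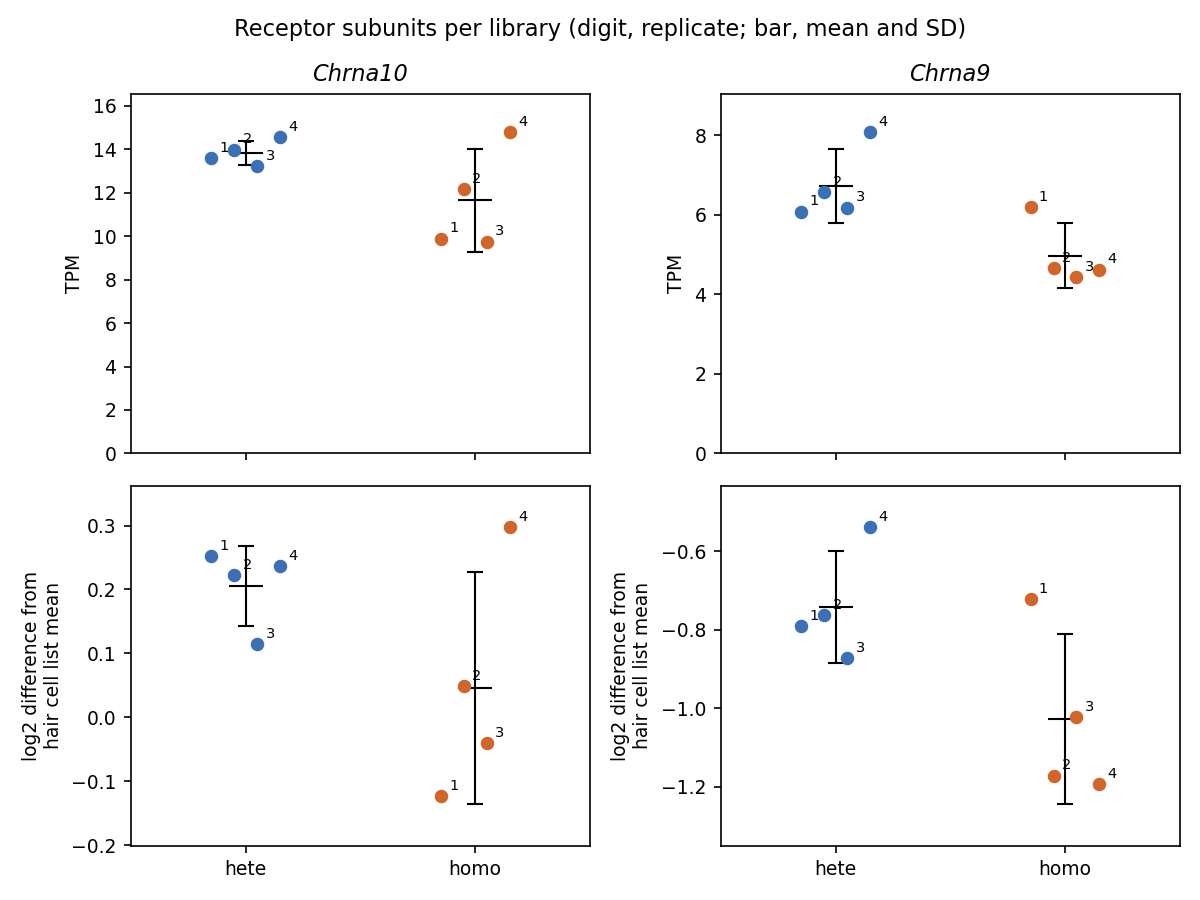
Chrna10 (left) and Chrna9 (right) per library, as TPM in the upper panels and as the log2 difference from the hair cell list mean in the lower panels; digits are replicate numbers and bars are the mean and SD. Homo replicate 4 is the highest Chrna10 library at 14.79 TPM, and homo replicate 1 is the homo library with hete-like Chrna9 at 6.19 TPM.

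Chrna9 lay below all hete libraries in homo replicates 2, 3 and 4, and Chrna10 in homo replicates 1, 2 and 3, so both did in 2 of 4 homo libraries. After the group means were taken away, the Pearson r of Chrna9 with Chrna10 over the 8 libraries was -0.17, which put Chrna10 at rank 8613 of 11408 protein-coding genes with at least 5 TPM compared with Chrna9. The genes most like Chrna9 by this measure were Pla2g4e, a phospholipase A2 gene (r = 0.99), Ppp4r4 (0.98), Sec63 of the endoplasmic reticulum (0.98), Dcaf17 (0.98) and C9orf72 (0.97). Those most like Chrna10 were Ier5 (0.96), Lrrc47 (0.95), Ifi27 (0.94), Tmem255b (0.94) and Gmfg (0.93). With 11408 genes and 8 libraries such high values are the top of a long ranking and carry no test.

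Rapsn encodes rapsyn, which anchors nicotinic receptors under the membrane and was first known from muscle. It had 1.90, 1.86, 4.96 and 3.69 TPM in hete and 2.93, 3.20, 3.00 and 3.43 TPM in homo. The hete libraries spread widely, and all homo libraries lay inside their range. Its change, homo over hete, came to 0.08 in log2 (SE 0.23, with a 95% interval from -0.43 to 0.60; limma-trend, adjusted p = 0.977), and its sign turned without hete replicate 1 (-0.06) or hete replicate 2 (-0.07). Skeletal muscle is another tissue where Rapsn is abundant. Of 10 muscle markers Myod1 was listed at 0 in all libraries and 7 had a mean under 1 TPM, while Tnnt3 at 3.41 TPM and Chrna1 at 2.27 TPM stood near the level of Rapsn. The list sums were 5.15 to 9.29 TPM in hete and 6.30 to 8.97 TPM in homo. Over 8 libraries the Pearson r of Rapsn with the muscle list mean was -0.50 (permutation p = 0.21, adjusted over 49 relations p = 0.733). It was 0.39 without hete replicate 3 and homo replicate 3, whose list means lay farthest from the median. Beyond this relation the part of muscle in the Rapsn value was not tested. Relative to the hair cell list Rapsn differed by 0.17 between groups (exact permutation test, p = 0.429, adjusted p = 0.571).

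Ache encodes acetylcholinesterase, which ends the signal by splitting acetylcholine, and is made by several cell types. It had 1.91, 5.14, 4.39 and 3.85 TPM in hete and 3.19, 3.20, 1.63 and 6.23 TPM in homo. Homo held both the lowest and the highest library, and the groups overlapped throughout. Its change, homo over hete, came to -0.12 in log2 (SE 0.32, with a 95% interval from -0.84 to 0.60; limma-trend, adjusted p = 0.977), and it turned to 0.01 without hete replicate 2 and to 0.11 without homo replicate 3. The difference relative to the hair cell list was -0.03 (exact permutation test, p = 0.943, adjusted p = 0.943).

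Relations between library levels of the genes and of cell type lists were computed for 7 genes and 7 lists, 49 in all, after their values had been seen. None passed adjustment over the 49, and 9 had an unadjusted permutation p under 0.05 for Pearson's r, 4 of them with Ache. The mean log2(TPM + 1) of 13 spiral ganglion neuron markers was lowest in hete replicate 1 (4.21) and homo replicate 3 (4.48), the libraries with the least Ache, and highest in homo replicate 4 (5.30), the library with the most. Over 8 libraries Pearson's r of Ache with this mean was 0.89 (permutation p = 0.0028) and Spearman's rho was 0.88 (permutation p = 0.0072), and r was 0.82 without hete replicate 1 and homo replicate 4. Here and below, the 2 libraries left out were those whose list mean lay farthest from the median. Leaving out the ends of a range can by itself lower r. With group means taken away r was 0.97. The adjusted p was 0.0952 for r and 0.30 for rho. Ache was related to 3 other lists as well. With glia markers r was 0.79 (permutation p = 0.0213, adjusted p = 0.168; rho = 0.55, permutation p = 0.171, adjusted p = 0.744), falling to 0.24 without hete replicate 1 and homo replicate 3. With general hair cell markers r was 0.76 (permutation p = 0.0275, adjusted p = 0.168; rho = 0.76, permutation p = 0.0368, adjusted p = 0.30), and 0.66 without homo replicates 1 and 3. With inner hair cell markers r was 0.74 (permutation p = 0.0353, adjusted p = 0.192; rho = 0.79, permutation p = 0.0279, adjusted p = 0.30), and 0.65 without hete replicate 3 and homo replicate 4. The general hair cell list holds Pvalb, which was lowest and highest in the same libraries as the neuron list. With group means taken away, r of Ache was 0.88 with glia, 0.82 with general hair cell and 0.75 with inner hair cell markers. Groups of 4 libraries are too few for a value within each group.

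The other 5 of the 9 relations were with hair cell lists. Chrna9 had r = 0.84 with outer hair cell markers (permutation p = 0.0058, adjusted p = 0.0952; rho = 0.79, permutation p = 0.0279, adjusted p = 0.30), with r = 0.62 after hete replicate 4 and homo replicate 3 were left out. Chrna10 had r = 0.85 with general hair cell markers (permutation p = 0.0105, adjusted p = 0.129; rho = 0.76, permutation p = 0.0368, adjusted p = 0.30), but r was 0.24 without homo replicates 1 and 3. Slc5a7 had r = -0.84 with outer hair cell markers (permutation p = 0.0057, adjusted p = 0.0952; rho = -0.55, permutation p = 0.171, adjusted p = 0.744), with r = -0.57 after hete replicate 4 and homo replicate 3 were left out. Calca had r = -0.76 with the same list (permutation p = 0.0271, adjusted p = 0.168; rho = -0.62, permutation p = 0.115, adjusted p = 0.626), with r = -0.49 without those libraries. Rapsn had r = 0.79 with inner hair cell markers (permutation p = 0.0223, adjusted p = 0.168; rho = 0.81, permutation p = 0.0218, adjusted p = 0.30), with r = 0.63 without hete replicate 3 and homo replicate 4. With group means taken away, these 5 relations had r of 0.80, 0.79, -0.79, -0.91 and 0.80, in the order given. Not among the 9 was Chrna9 with general hair cell markers (r = 0.48, permutation p = 0.239, adjusted p = 0.78, group-centred r = 0.12). Neither was Chrna10 with outer hair cell markers (r = 0.35, permutation p = 0.405, adjusted p = 0.87, group-centred r = 0.05).

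**Figure D3:**
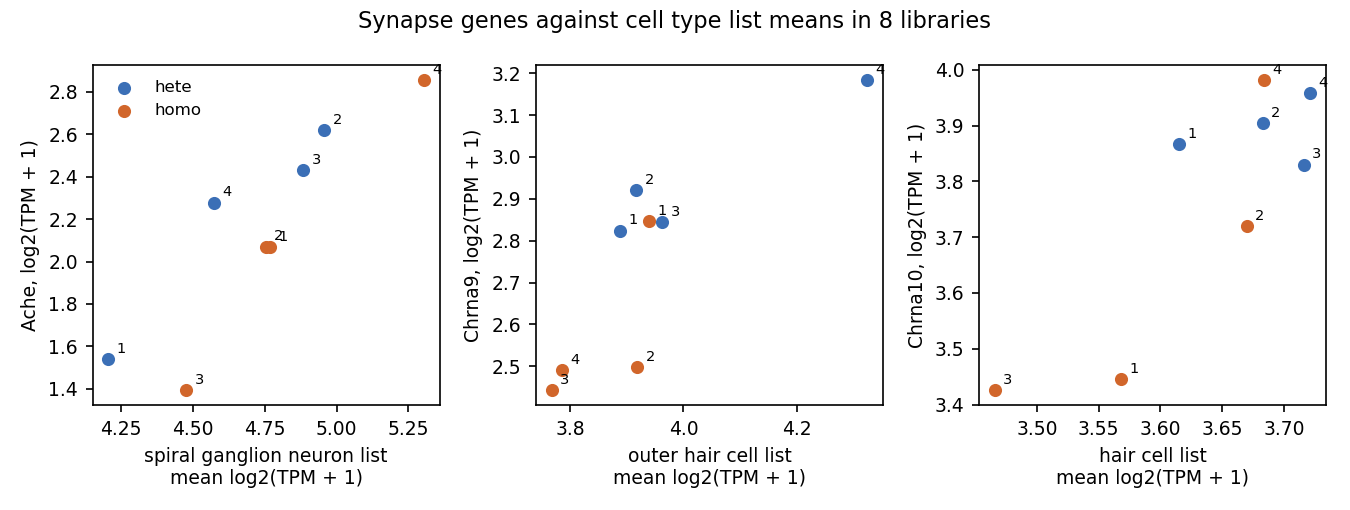
Each panel sets 1 gene, as log2(TPM + 1) on the y axis, against a cell type list mean on the x axis, for 8 libraries with replicate digits. Ache is lowest in hete replicate 1 and homo replicate 3 and highest in homo replicate 4, as is the neuron list; hete replicate 4 stands apart to the right in the outer hair cell panel.

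Of the 3 genes that define a cholinergic nerve cell, 1 was above 0. Chat, which makes acetylcholine, and Slc18a3, which loads it into vesicles, were listed at 0 in each library, as were 15.69% of 21807 protein-coding genes. Slc5a7, which takes choline back up for the next round, had 1.08, 1.22, 1.32 and 0.78 TPM in hete and 1.54, 1.28, 2.03 and 1.83 TPM in homo. Of the homo libraries 3 lay above all hete libraries, while homo replicate 2 lay inside the hete range. Its change, homo over hete, came to 0.35 in log2 (SE 0.17, with a 95% interval from -0.03 to 0.72; limma-trend, adjusted p = 0.861), with a range of 0.27 to 0.42 when 1 library was left out and 0.56 with a pseudocount of 0.1.

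Most listed markers of the brainstem and motor neurons that make acetylcholine were low as well. Of 9 listed genes, Tbx20, Mnx1, Hoxb1 and Lhx4 were listed at 0 in all libraries and 7 had a mean under 1 TPM. Among those 7, Nkx2-2 reached 2.01 TPM in hete replicate 2. The 2 that passed the filter, Sncg (27.6 TPM in hete, 34.2 in homo) and Prph (1.48 and 1.61), are also known from neurons of the cochlea and so do not mark efferent cells. Neither was called, and their log2 fold changes were 0.35 (SE 0.36) and 0.06 (SE 0.28). Scn10a, Trpv1, Tac1, Th and Dbh, markers of other sensory and autonomic neurons, had means under 1 TPM and were not tested.

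Calca encodes calcitonin and, by alternative splicing, the peptide CGRP, which efferent terminals carry beside acetylcholine. It had 39.43, 30.08, 32.95 and 21.92 TPM in hete and 25.11, 29.09, 32.90 and 35.32 TPM in homo. The highest and the lowest library were both hete. Its change, homo over hete, came to -0.00 in log2 (SE 0.17, with a 95% interval from -0.38 to 0.38; limma-trend, adjusted p = 0.999), and its sign turned without 1 of 4 libraries, up to 0.12 without hete replicate 1. A gene value does not separate calcitonin from CGRP transcripts, nor does it show which cells made them. Chat and Slc18a3 were listed at 0 in the same libraries, and the cell source of Calca was not tested. With its source unknown, the Calca level is not read here as a measure of efferent terminals. Over 8 libraries the Pearson r of Calca with the neuron list mean was -0.04 (permutation p = 0.924, adjusted p = 0.986). The library with the most Calca, hete replicate 1, had the lowest neuron mean of 4.21.

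Calcb encodes the second form of CGRP and lies next to Calca on chromosome 7. It had 0.52, 0.49, 0.86 and 0.70 TPM in hete and 0.52, 0.37, 0.94 and 0.49 TPM in homo. These overlapping values were under the filter, and the fit with no filter gave a log2 fold change of -0.06 (SE 0.16; limma-trend, adjusted p = 0.934). The Calcb to Calca ratio was 0.0219 ± 0.0087 in hete against 0.0190 ± 0.0073 for homo (SD, n = 4; exact permutation test on the log2 ratio, p = 0.629, adjusted p = 0.629). The log2 difference of -0.19 turned to 0.02 without hete replicate 4. Their transcripts share an identical run of 61 bases and 81.5% identity over 449, so short reads there may have been split between them and the low Calcb value is uncertain.

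Other parts of the pathway, in 7 lists of 58 genes, held 29 genes that passed the filter. None was called by limma-trend, and 2 of the 29 had an unadjusted p under 0.05, Atp2a3 lower and Gad1 higher, beside 6.05% of all tested genes, so this number is near the background. Over all tested genes the median log2 fold change was 0.02, with 43.7% lower in homo. Among genes for receptor assembly and clustering, 6 of 7 were tested, 3 higher and 3 lower (median 0.01). Agrn, an organiser of synapses whose cell source was not tested here, stood at 177 ± 14.2 TPM (SD, n = 4) in hete and at 192 ± 7.86 TPM in homo. Its log2 fold change was 0.12 (SE 0.07), and its receptor Lrp4 had 0.20 (SE 0.09). Ric3, a chaperone of nicotinic receptors, had 0.26 (SE 0.15). Musk, the kinase that works with Lrp4, had a mean of 0.76 TPM and was not tested.

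The channels and pumps beside the receptor gave 5 tested genes of 8, 3 higher and 2 lower (median 0.06). Kcnn2, the small-conductance potassium channel that carries the inhibitory current, had 5.04, 5.95, 5.77 and 7.19 TPM in hete and 6.85, 7.05, 6.19 and 5.10 in homo, with a log2 fold change of 0.06 (SE 0.13, 95% interval -0.23 to 0.35; limma-trend, adjusted p = 0.967). Its groups overlapped almost fully. Atp2a3, a calcium pump of internal stores, had a log2 fold change of -0.46 (SE 0.17), Cacna1d, the hair cell calcium channel, -0.11 (SE 0.12) and Atp2a2, the common calcium pump, 0.06 (SE 0.09). The ryanodine receptors Ryr1, Ryr2 and Ryr3, which release calcium from internal stores, all had means under 1 TPM and were not tested. Ryr2 had 0.61 to 0.93 TPM in hete and 1.07 to 1.34 TPM in homo, with no overlap. The groups did not overlap for 3.99% of tested genes, and the share among genes under the filter, such as Ryr2, was not computed.

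Among 14 other nicotinic subunits 6 were tested, 3 higher and 3 lower (median -0.01). Chrnb1, a subunit of the muscle receptor, was the highest at 15.5 TPM in hete and 15.6 in homo (log2 fold change 0.01, SE 0.12), above Chrna10 in level. Its muscle partner Chrna1 had 2.30 and 2.25 TPM (-0.03, SE 0.13). Chrna4, a neuronal subunit, had -0.18 (SE 0.13) and Chrna3 -0.08 (SE 0.23). Of 5 muscarinic receptors Chrm1 alone was tested (0.03, SE 0.17). Bche, the second enzyme that splits acetylcholine, was listed with the cholinesterase partners Colq and Prima1. Of these 3 genes it alone was tested, at 11.7 and 11.8 TPM (0.00, SE 0.09).

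CGRP receptor genes and relatives of the peptide gave 6 tested genes of 9, 2 higher and 4 lower (median -0.04). Ramp2 was the highest at 52.7 and 51.6 TPM (log2 fold change -0.02, SE 0.13), and Crcp, a receptor component protein, had -0.06 (SE 0.09). Ramp1, the partner that turns Calcrl into the CGRP receptor, had 1.71 and 1.48 TPM (-0.16, SE 0.22). Ramp3 had 0.15 (SE 0.12) and the related peptide gene Adm -0.17 (SE 0.13).

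Among 12 genes for other efferent transmitters 4 were tested, 3 higher and 1 lower (median 0.37). Gad1, which makes GABA, had 5.54, 5.31, 6.07 and 4.35 TPM in hete and 6.31, 9.95, 8.65 and 11.05 TPM in homo. All homo libraries lay above all hete libraries, as for 3.99% of tested genes in either direction, and the log2 fold change of 0.64 (SE 0.16; limma-trend, adjusted p = 0.581) was not called. Penk, the enkephalin precursor, stood at 4.10 ± 1.89 TPM (SD, n = 4) in hete and at 6.67 ± 1.77 TPM in homo, with overlapping groups (0.65 in log2, SE 0.30; limma-trend, adjusted p = 0.835). Gad2 and Slc32a1, which also define GABA neurons, had means under 1 TPM.

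**Figure D4:**
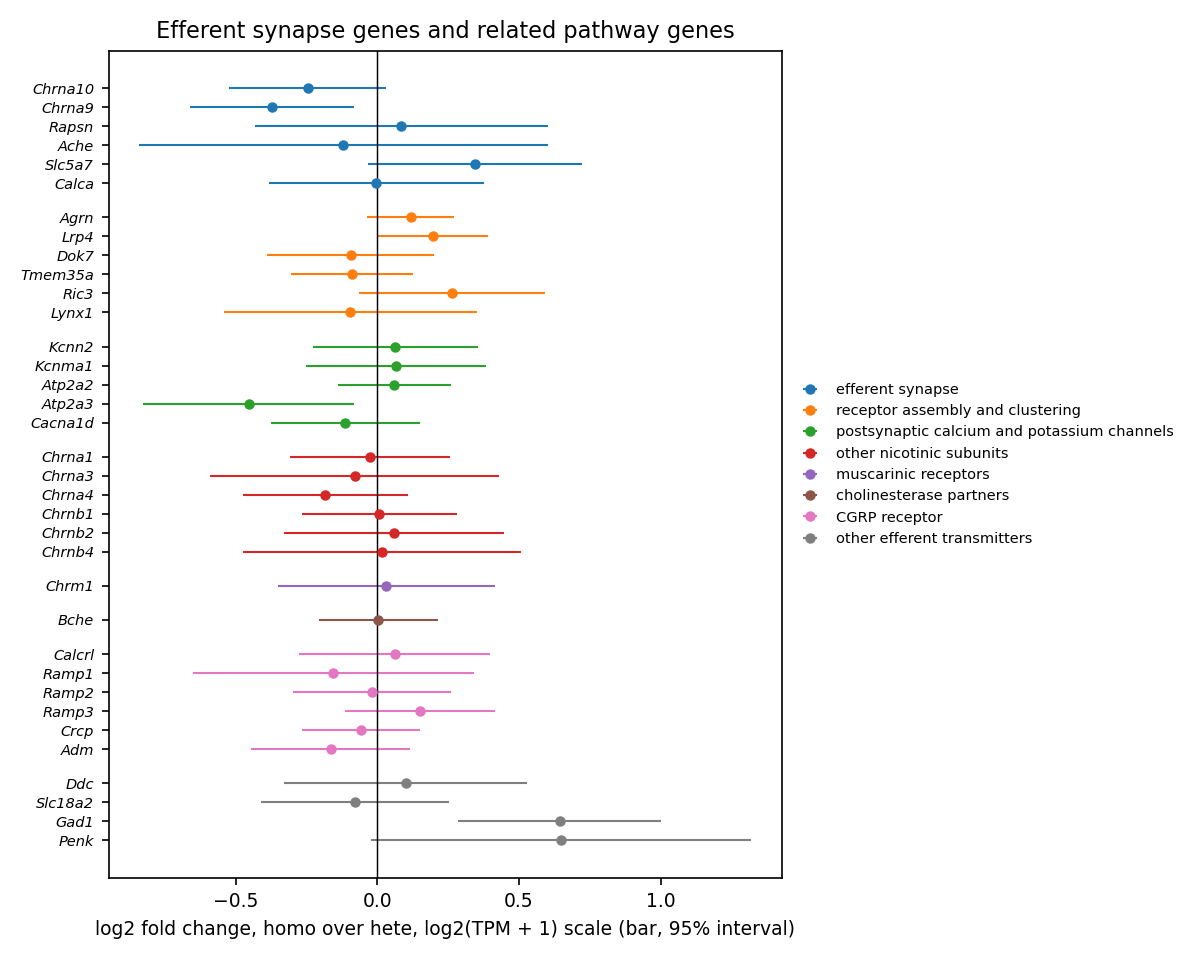
The x axis is the log2 fold change (homo over hete, from log2(TPM + 1)), with bars for 95% intervals from limma-trend, for the 6 tested efferent synapse genes and 29 other tested pathway genes, coloured by list. Chrna9, Atp2a3 and Gad1 have intervals off 0, and none of the genes shown was called after adjustment over all genes.

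Cell type lists gave the setting of these values. Of 15 hair cell markers 13 were tested, 9 lower and 4 higher (median -0.10), with Cib2 at -0.27 (SE 0.07), Otof at -0.30 (SE 0.10), Myo6 at -0.05 (SE 0.07) and Pvalb at 0.04 (SE 0.25). Of 8 outer hair cell markers 6 of the 7 tested were lower (median -0.10), with Ocm at -0.92 (SE 0.34), Strc at -0.21 (SE 0.15) and Sri at 0.07 (SE 0.06). The 5 inner hair cell markers, Otof again among them, had 3 higher and 2 lower (median 0.03), with Fgf8 at 0.32 (SE 0.19) and Tbx2 at 0.03 (SE 0.10). All 13 neuron markers were tested, 11 higher (median 0.16), with Syt1 at 0.31 (SE 0.07), Isl1 at 0.29 (SE 0.08) and Nefm at 0.02 (SE 0.34), and all 8 glia markers were higher (median 0.22), with Egr2 at 0.62 (SE 0.26), Foxd3 at 0.36 (SE 0.22) and Pmp22 at 0.02 (SE 0.25). Of 10 muscle markers 3 were tested (median 0.02), with Tnni2 at 0.38 (SE 0.26) and Tnnt3 at 0.02 (SE 0.27), and all 5 tested of 7 erythroid markers were lower (median -0.21), with Hbb-bs and Hbb-bt both at -0.21 (SE 0.19 and 0.18) and Hba-a2 at -0.21 (SE 0.35). No gene of these lists was called by limma-trend. At an unadjusted p under 0.05 there were 2 hair cell genes and 1 outer hair cell gene on the lower side, and 3 neuron genes and 1 glia gene on the higher side. The inner hair cell list had 1 on the lower side, Otof, which the hair cell count already holds. Over all tested genes 2.49% were lower and 3.56% higher at that p. Hair cell list means ran from 3.62 to 3.72 in hete and from 3.47 to 3.68 in homo. Their part in the receptor values was not tested beyond the relative values and the relations between library levels above.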

How the data were processed

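The authors deposited TPM values for 78317 genes in 8 libraries, 4 per group, rounded to 2 decimals. Fastp, HISAT2, StringTie, RSEM, DESeq2 and the build GRCm39 are named per the submitters' processing notes, without versions or roles. Stranded mRNA libraries were made from 1 µg of total RNA, per the labels' protocols. The authors' deposited table of gene ontology enrichment holds raw and adjusted p-values for its terms and was read for term counts and gene names.

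The fit was limma-trend (limma 3.58.1 in R 4.3.3, eBayes with trend and robust options) on log2(TPM + 1), with genotype as the only term, for genes whose mean reached 1 TPM. It was tested on simulated data. Exact permutation tests and figures used Python 3.11.15 and matplotlib 3.10.9. Gene models came from GENCODE M21 and promoters from RefSeq, both on GRCm38. Transcripts were compared with blastn 2.17.0. Alternatives were quantile and trimmed-mean (TMM) scaling, filters of none or 5 TPM in 4 libraries, a pseudocount of 0.1, a replicate block, eBayes without robust, another reference list, and each library left out.

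The members and lists were chosen with earlier results of these data known. Genes named are the 9 members, from each list the 2 with the smallest p and the 2 with the highest mean, and for each receptor subunit the 5 genes with the highest group-centred r. A marker gene that this rule names is not reported here. Art1, Dnajc17, Kcnn2 with its values, Ramp1, Chrna1 among the nicotinic subunits and list genes under 1 TPM were named after their values were seen, as were the relations with cell type lists.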

Additional observations from a re-analysis of the deposited data

Results flagged for a closer look

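The Chrna9 value of homo replicate 1, at 6.19 TPM, stood far from the other homo libraries, which held 4.44 to 4.65 TPM; its gap to the next library was 0.88 of the group's range, above Dixon's 95% critical value for 4 values. Of 26 groups of 4 values looked at, this was the only 1 flagged, and chance flags about 1 in 20. Without this library the log2 fold change of Chrna9 was -0.47 (limma-trend, adjusted p = 0.658).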

How the results depend on the processing

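No member was called in any of the 15 alternatives. The signs of Chrna9, Chrna10 and Slc5a7 held in all alternatives that could be run for them, with adjusted p (limma-trend) of 0.625 to 0.991, 0.705 to 0.991 and 0.790 to 0.991. Over all tested genes, the 2 calls became 1 with no filter on low values and 1 with the replicate block, and ranged from 1 to 5 when 1 library was left out (1 without hete 1, homo 2 or homo 3, 4 without homo 1 or homo 4, and 5 without hete 3). The 5 called neighbours in the order of levels ranged from 4 to 5 when 1 library was left out; with 7 libraries fewer sign patterns exist. Calls relative to the hair cell list and of the ratios were 0 throughout; blocks of 4 pairs cannot go below p = 0.125 in the exact permutation test. Ache relative to outer hair cell markers turned from -0.03 to 0.05 and was not called. Same-numbered libraries did not deviate together (r = -0.08, -0.03, 0.05 and 0.01 for numbers 1 to 4). These values cannot show whether the samples were paired, which the labels do not state. The replicate block called no member. The fold change of Calcb, which is under the filter, had no alternatives. Depth is unknown, so how far counting error limits genes near 1 TPM, such as Slc5a7 and Calcb, was not tested.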

Other observations

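The deposited annotation assigns 112 genes to the KEGG pathway named cholinergic synapse, among them the members Ache, Chat, Slc18a3 and Slc5a7. Of these 112 genes 88 were tested by limma-trend, 59 higher and 29 lower in homo, with a median log2 fold change of 0.03 beside 0.02 over all tested genes. None was called, and 3 had an unadjusted p under 0.05, 1 higher and 2 lower, where 6.05% of all tested genes did. The authors' deposited table of gene ontology enrichment holds 387 terms, 13 of them with an adjusted p under 0.05, and names 60 genes. None of its terms names a member, and of the other listed genes it names Ryr1 alone, which had 0.23 to 2.19 TPM in hete and 0.19 to 0.64 in homo.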
